A study of Homo sapiens with 4 samples.

Results

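The genes described here are 48 genes of ribosome production: the transcription factor MYC, genes of RNA polymerase I, and genes for nucleolar proteins that process ribosomal RNA and assemble the ribosomal subunits. They were set by name and not by a rule on their values, although earlier results of these data were known. They make up 48 of the 29655 distinct gene names in the count tables. All 48 were found, 47 under their own symbol and 1, UTP4, under its older name CIRH1A, and all 48 were expressed well enough to be tested among 11878 protein-coding genes. The question was whether the genes that make ribosomes differed between cells given control shRNA and cells given shRNA against PRMT5, the arginine methyltransferase that places symmetric dimethyl marks on proteins.

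RNA polymerase I transcribes one long precursor RNA in the nucleolus, and that precursor is cut into the 18S, 5.8S and 28S ribosomal RNAs. Box C/D small nucleolar ribonucleoproteins methylate the precursor, the small subunit processome folds and cleaves its 5′ end, and a separate set of GTPases, RNA helicases and scaffold proteins builds the large subunit. MYC is known for raising the transcription of many of these genes through E-box sites, and high demand for ribosomes is a feature of many cancers.

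By their labels the libraries came from UMSCC74B, an established line of head and neck squamous cell carcinoma (HNSCC). There were 2 libraries of cells given control shRNA plasmid (genotype label WT) and 2 of cells given PRMT5 shRNA plasmid (genotype label PRMT5 KD, here the KD-labelled libraries), all kept for 72 h without antibiotic. The labels call this transfection, the methods describe lentiviral particles, and neither the number of hairpins nor separate cultures for the replicates are given in the labels. The p-values therefore measure the spread between these libraries, which may be technical.

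Estimated counts per library came to between 52185289 and 65964558, of which between 41949816 and 53659040 fell on protein-coding genes. The PRMT5 transcript did not follow the labels. PRMT5 had 94.3 and 84.3 CPM (the count relative to the TMM-scaled library size) in control and 132 and 149.6 CPM in the KD-labelled libraries, so the transcript was higher there (log2 fold change 0.66, SE 0.12, FDR = 0.00546, and 0.58 with FDR = 0.0678 without control replicate 2). WDR77, the partner subunit of PRMT5, was higher as well (0.87, FDR = 0.0035), and FXR1 had a log2 fold change of 0.27 (FDR = 0.0723). Counts do not measure PRMT5 protein, which per the labels was examined by immunoblot and is not analysed here. The paper states that the immunoblot bore out the silencing by the PRMT5 shRNA. Of 9 squamous epithelial markers, KRT5, KRT6A and KRT14 had at most 22 counts in any library and CDH1 at most 9, KRT17 had 5 and 6 counts in control against 53 and 71 and SFN 3 and 5 against 28 and 86, and only 3 markers were expressed well enough to be tested, of which TP63 and DSG3 were called lower and DSP was not called (0.58, FDR = 0.108). Summed over the 9, the level was 75.6 and 65.9 CPM in control against 50 and 78.2 CPM under the KD label. Of 10 markers of other cell types, the fibroblast genes COL1A1, COL3A1 and PDGFRB and the endothelial gene PECAM1 were lower in the KD-labelled libraries. Their log2 fold changes were -1.95, -5.25, -2.38 and -5.27, and COL3A1 went from 102 and 146 CPM to 2.33 and 4.18 CPM. CD68 was higher (0.63), and ACTA2 was not called (-0.38, FDR = 0.0731). CD3E had no count in any library, and PTPRC, VWF and ALB were not tested. VWF had 102 and 205 counts in control against 34 and 15. Summed over the 10 markers, the level was 392 and 484 CPM in control and 197 and 233 CPM under the KD label. The counts of KRT5, KRT6A, KRT14 and CDH1 did not follow the squamous label of the line, while DSG3 was expressed in control (43.1 and 36.4 CPM). The identity of the line was not tested. The part of these markers in the results below was not tested. The directions below are by label. In bulk libraries, fewer cells of a type and less RNA per cell cannot be told apart.

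Most genes of ribosome production were higher in the KD-labelled libraries. At an FDR under 0.05 and a log2 fold change of at least 0.5, 36 of the 48 were called higher and none lower, against 21.2% called higher and 24.3% called lower among all genes tested. The median log2 fold change of the 48 was 0.81, which is 1.76-fold, beside -0.01 over all genes tested. The 36 called genes were between 1.42-fold and 3.01-fold higher, and 12 had a log2 fold change of at least 1. In 43 of the 48 both PRMT5 KD libraries lay above both control libraries, as they did in 39.9% of all genes tested. In 2 of the 48 (HEATR1 and GNL3L) both lay below, as they did in 4824 of the 11878 genes tested. Of the 12 genes that were not called, 4 had an FDR under 0.05 with a fold change below the threshold, namely WDR12, RRP1B, NOB1 and POLR1D. Without control replicate 2, 24 of the 48 were called higher, and without any one of the other libraries up to 38, with none called lower. With scaling by total counts, which raised the median of all genes to 0.17, 42 of the 48 were called higher, and the calls over all genes went from 2515 higher and 2888 lower to 3501 higher and 2196 lower.

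**Figure D1:**
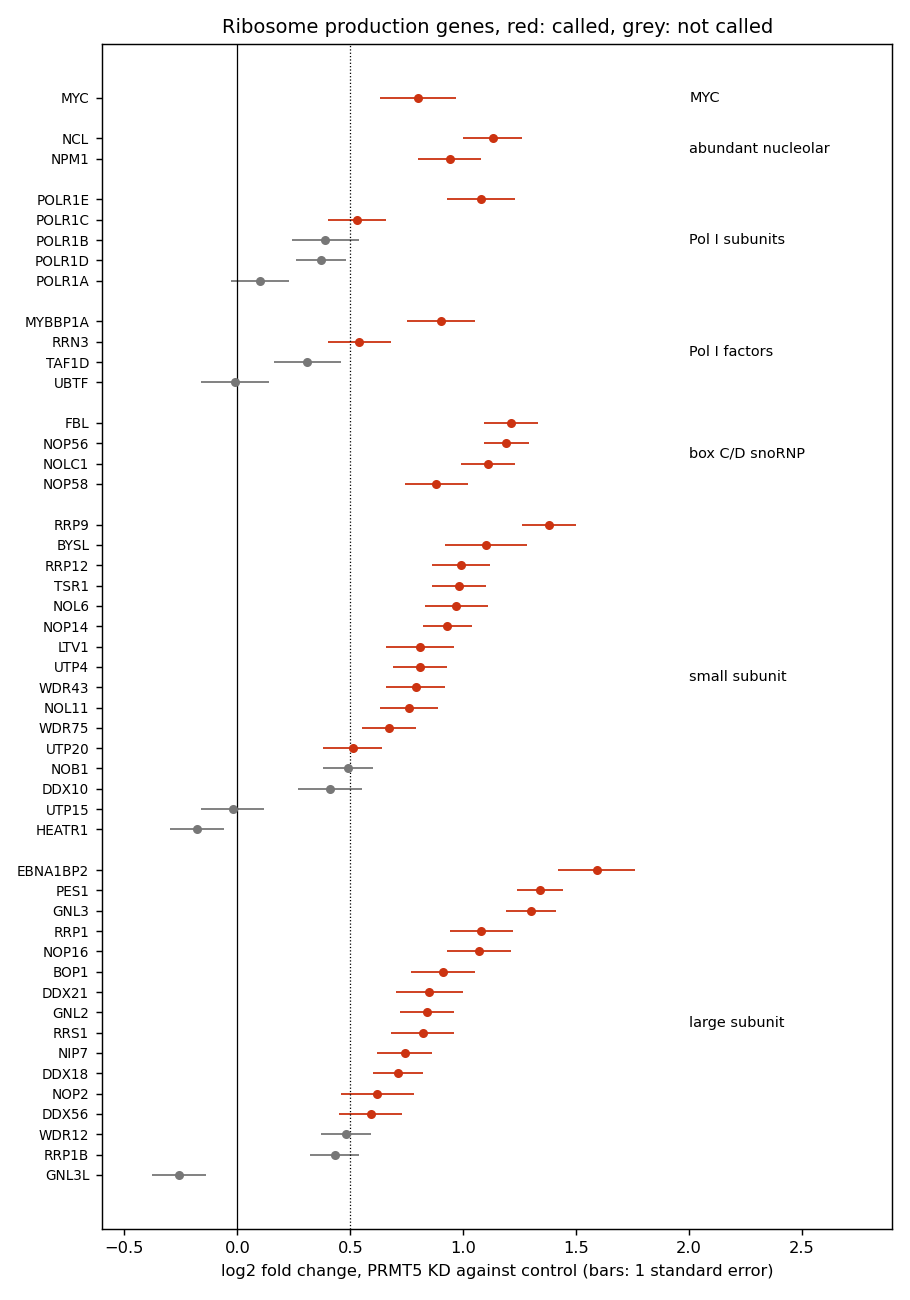
The log2 fold change of the 48 genes between the KD-labelled libraries and control (x axis) is drawn by role, with bars of 1 standard error, red for called genes and grey for genes not called, and a dotted line at 0.5. The 36 called genes lie to the right of the dotted line, up to 1.59 for EBNA1BP2, and RNA polymerase I subunits and factors hold 5 of the 12 grey points.

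Together the 48 genes had 3863 and 3484 CPM in control and 6301 and 6443 CPM in the KD-labelled libraries. These genes encode abundant and scarce proteins alike, and their levels were compared per kilobase of exon (RPKM). NPM1 had the highest mean level in both groups, 73.9 RPKM in control and 142 RPKM under the KD label, and POLR1D the lowest, 2.85 and 3.69 RPKM. The order depends on the exon length used, 12363 bases for POLR1D. Its mean in control was 35.2 CPM, above the 8.74 CPM of NOP16. DDX21, NOLC1 and NCL followed NPM1 in control at 27.2, 26.7 and 26.3 RPKM, and the order of these 3 rests on differences smaller than the spread between the control libraries. HEATR1, at 19.1 RPKM, was the 8th highest of the 48 in control, and at 16.9 RPKM it was the 30th under the KD label.

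MYC, the transcription factor of the set, had 75.7 and 54.2 CPM in control and 118 and 109 CPM in the KD-labelled libraries. Both PRMT5 KD libraries lay above both control libraries, although the control libraries differed from each other by more than the PRMT5 KD libraries did. The log2 fold change was 0.80 (SE 0.17, FDR = 0.00978). MYC was among the genes whose call rested on control replicate 2, without which the log2 fold change was 0.58 (FDR = 0.0563).

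Nucleolin and nucleophosmin, the most abundant nucleolar proteins, were both higher. NCL, which binds the precursor RNA and chromatin of the ribosomal genes, had 242 and 226 CPM in control and 496 and 529 CPM in the KD-labelled libraries (log2 fold change 1.13, SE 0.13, FDR = 0.000876). NPM1, a chaperone of ribosome assembly and export, had 607 and 622 CPM against 1237 and 1126 CPM (0.94, SE 0.14, FDR = 0.00215). In both genes the libraries of a group lay close together and the groups were far apart. NPM1 has many processed copies in the genome, and the estimates may have split its reads among them in a way that cannot be seen here.

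All 4 box C/D genes were higher (median log2 fold change 1.15). FBL encodes fibrillarin, the methyltransferase that places 2′-O-methyl groups on ribosomal RNA. It had 32.6 and 28.8 CPM in control and 68.9 and 73 CPM in the KD-labelled libraries (log2 fold change 1.21, SE 0.12, FDR = 0.000615). NOP56 and NOP58, the core proteins that hold fibrillarin on the guide RNA, had log2 fold changes of 1.19 and 0.88, and NOLC1, a chaperone of these particles in nucleoli and Cajal bodies, had 1.11. Of 14 other genes of small nucleolar ribonucleoproteins, 7 were called higher and none lower, with a median of 0.49. The largest change among them was that of DKC1, the pseudouridine synthase of the box H/ACA particles (0.85, FDR = 0.00257).

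Of the 5 RNA polymerase I subunits, 2 were called higher, and all 5 when exon length and GC content were corrected for. Their log2 fold changes were then from 0.53 for POLR1C to 0.96 for POLR1E, and 2851 of the 11878 genes tested were called higher in that fit. POLR1A, the largest catalytic subunit, had 129 and 109.8 CPM in control and 133 and 123 CPM in the KD-labelled libraries, so that the groups overlapped (log2 fold change 0.10, SE 0.13, FDR = 0.548, and 0.60 with FDR = 0.00691 after that correction). POLR1B, the second largest subunit, had 60.5 and 51.5 CPM against 65.3 and 81.6 CPM and was not called (0.39, SE 0.15, FDR = 0.0667). POLR1E, a subunit of the peripheral dimer that aids initiation and elongation, had 16 and 14.5 CPM against 29 and 35.2 CPM, and was higher by 1.08 on the log2 scale (SE 0.15, FDR = 0.00181).

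POLR1C and POLR1D are subunits that RNA polymerase I shares with RNA polymerase III. POLR1C had 17.2 and 16.6 CPM in control and 23.4 and 25.5 CPM under the KD label and was called higher (0.53, SE 0.13, FDR = 0.0139), a call that was lost without either control replicate 1, control replicate 2 or PRMT5 KD replicate 2. POLR1D had 34.8 and 35.7 CPM against 46.6 and 44.6 CPM, with groups that did not overlap but a log2 fold change under the threshold (0.37, SE 0.11, FDR = 0.0279). The ratio of a pair of subunits within a library does not depend on how libraries are scaled, but it does depend on any effect of exon length, and POLR1A has the longest exons of the 48 genes (19694 bases). There were 0.123 and 0.132 POLR1E counts per POLR1A count in control and 0.218 and 0.287 in the KD-labelled libraries.

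Of the factors that load or regulate the polymerase, UBTF, which coats the active ribosomal genes, had 45.6 and 55.2 CPM in control and 45.8 and 54.3 CPM under the KD label, with fully overlapping groups (log2 fold change -0.01, SE 0.15, FDR = 0.96). TAF1D, a subunit of the promoter selectivity factor SL1, had 32.7 and 25.9 CPM against 33.9 and 38.6 CPM and was not called (0.31, SE 0.15, FDR = 0.134). RRN3, the factor that makes the polymerase competent to initiate, had 63.8 and 53.3 CPM against 92.3 and 77.5 CPM and was called higher (0.54, SE 0.14, FDR = 0.0205). The RRN3 call was lost without either control library and without PRMT5 KD replicate 1, and RRN3 has near copies in the genome that may share its reads. MYBBP1A, a nucleolar protein that binds the polymerase and MYB, had 108 and 91.9 CPM against 166 and 208 CPM (0.90, SE 0.15, FDR = 0.00362, and 0.79 with FDR = 0.0515 without control replicate 2).

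Of 17 further genes of the RNA polymerase I machinery, 5 were called higher and none lower (median log2 fold change 0.38). The share called higher, 29.4%, was near the 21.2% over all genes tested. The largest change was that of POLR1G, the partner of POLR1E in the peripheral dimer, at 1.18 (SE 0.13, FDR = 0.000812). POLR1G had 15.1 and 13.7 CPM in control and 32.1 and 32.9 CPM in the KD-labelled libraries, so both subunits of the dimer were higher.

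**Figure D2:**
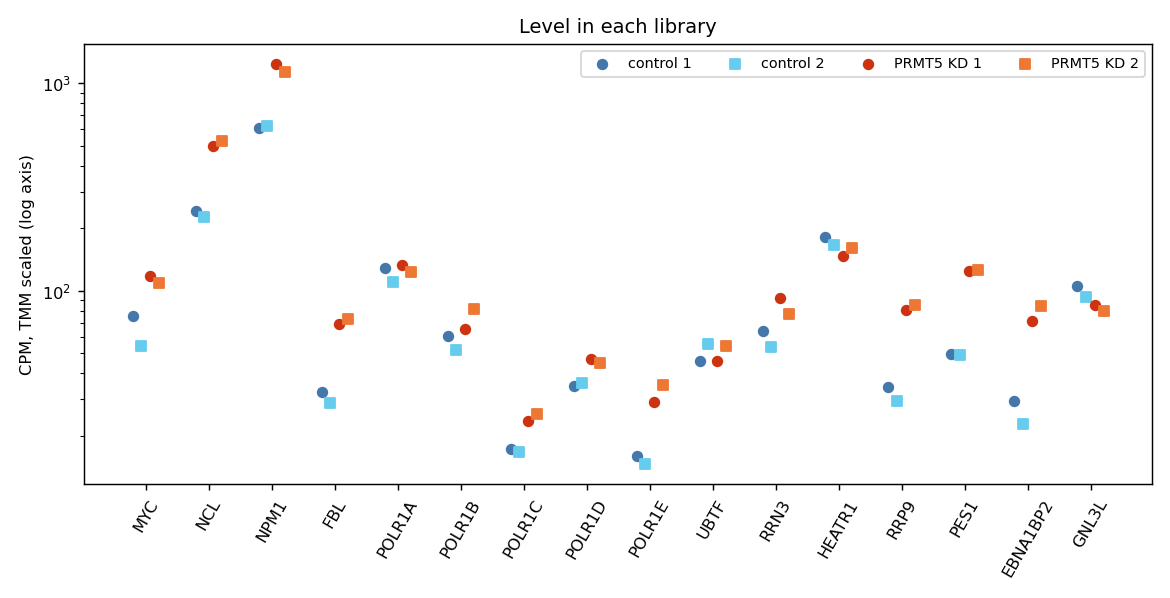
The CPM of 16 of the genes (y axis, log scale, scaled by TMM) is drawn for each of the 4 libraries, with blue points for control and red and orange for PRMT5 KD. Points of the groups overlap for POLR1A and UBTF, lie lower under the KD label on this scaling for HEATR1 and GNL3L (log2 fold changes of 0.00 and -0.08 with scaling by total counts), and are higher there for the other genes.

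Among the 16 genes of the small subunit pathway, 12 were called higher and none lower (median log2 fold change 0.80). RRP9, a U3 small nucleolar ribonucleoprotein component, had 34.2 and 29.4 CPM in control and 80.5 and 85.3 CPM in the KD-labelled libraries (log2 fold change 1.38, SE 0.12, FDR = 0.000502). BYSL, which acts late in small subunit maturation, had 33.7 and 23.9 CPM against 59.9 and 63.5 CPM (1.10, SE 0.18, FDR = 0.00337). RRP12, an export factor of the pre-ribosomal subunits, had 131 and 108 CPM against 248 and 229.7 CPM (0.99, SE 0.13, FDR = 0.00166). In all 3 the lowest PRMT5 KD library was well above the highest control library.

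The other called genes of this pathway were TSR1, NOL6, NOP14, LTV1, UTP4, WDR43, NOL11, WDR75 and UTP20, with log2 fold changes between 0.98 for TSR1 and 0.51 for UTP20. At the lower end stood components of the same early processome. HEATR1, a very large scaffold protein that is also needed for transcription of the ribosomal genes, had 182 and 165 CPM in control and 147 and 159.6 CPM in the KD-labelled libraries (-0.18, SE 0.12, FDR = 0.235). UTP15, which like HEATR1 and UTP4 belongs to the complex that first meets the precursor RNA, had 37.3 and 31.9 CPM against 36.3 and 32.1 CPM (-0.02, SE 0.14, FDR = 0.931). DDX10, an RNA helicase, had 64.3 and 50.3 CPM against 76.9 and 75.1 CPM. It missed both the fold change and the FDR threshold (0.41, SE 0.14, FDR = 0.0501). Of the same complex UTP4 (0.81, FDR = 0.00214), WDR43 (0.79), NOL11 (0.76) and WDR75 (0.67) were called higher, while UTP15 had groups that overlapped and HEATR1 was not called. There were 0.188 and 0.178 RRP9 counts per HEATR1 count in control and 0.548 and 0.534 in the KD-labelled libraries.

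Of the 44 other small subunit genes listed, 43 were tested, and 22 were called higher and none lower (median 0.50). NGDN, a nucleolar protein of the processome, had the largest change, a log2 fold change of 1.26 (FDR = 0.000969).

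Among the 16 genes of the large subunit pathway, 13 were called higher and none lower (median log2 fold change 0.83). EBNA1BP2, an early assembly factor, had the largest change of all 48 genes, from 29.3 and 22.6 CPM in control to 71.4 and 84.6 CPM in the KD-labelled libraries (log2 fold change 1.59, SE 0.17, FDR = 0.00075). PES1, the core of the PeBoW complex, had 49.6 and 48.7 CPM against 124 and 125 CPM (1.34, SE 0.10, FDR = 0.000355). GNL3, the nucleolar GTPase nucleostemin, had 41.5 and 39.9 CPM against 96.7 and 104 CPM (1.30, SE 0.11, FDR = 0.000429). For PES1 and GNL3 the libraries of each group were nearly equal and the groups lay far apart.

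PES1 works in the PeBoW complex with BOP1 and WDR12, and the 3 genes differed in size of change. BOP1 had a log2 fold change of 0.91 (SE 0.14, FDR = 0.00233). WDR12 had 39 and 38.2 CPM in control and 53 and 54.7 CPM in the KD-labelled libraries, a change with an FDR under 0.05 but a size below the threshold (0.48, SE 0.11, FDR = 0.0104). There were 1.27 and 1.28 PES1 counts per WDR12 count in control and 2.34 and 2.29 in the KD-labelled libraries.

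The related GTPases GNL3 and GNL3L differed in size of change. GNL3L had 105 and 92.7 CPM in control and 85.1 and 79.9 CPM in the KD-labelled libraries, so that the groups did not overlap, but it was not called (-0.26, SE 0.12, FDR = 0.101), and its log2 fold change was -0.08 with scaling by total counts and 0.04 after the correction for length and GC content. GNL3 counts per GNL3L count were 0.395 and 0.43 in control and 1.14 and 1.3 under the KD label. RRP1B, a paralog of RRP1, had 55.1 and 55.2 CPM against 78 and 71 CPM and stayed under the fold change threshold (0.43, SE 0.11, FDR = 0.0165), whereas RRP1 had a log2 fold change of 1.08 (SE 0.14, FDR = 0.00154). The ratio of RRP1 to RRP1B counts was 0.244 and 0.234 in control and 0.387 and 0.359 in the KD-labelled libraries. These pairs were chosen after their values were seen, and their ratios carry no test and no correction for length.

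**Figure D3:**
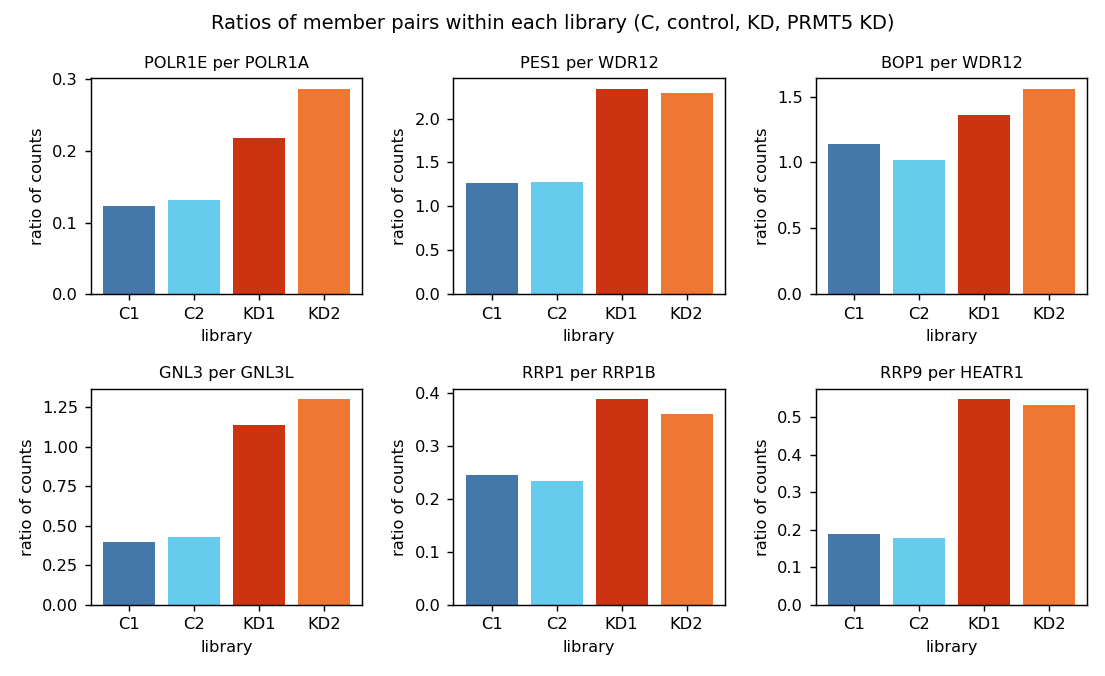
Each panel shows the ratio of the counts of a pair of genes within each of the 4 libraries (bars from 0, C for control and KD for PRMT5 KD), with no error bar because a bar is a single library. Every ratio is higher in both KD libraries than in both control libraries, for example from 0.395 and 0.43 to 1.14 and 1.3 for GNL3 per GNL3L. The pairs were chosen after their values were seen, so the shared direction is no test. POLR1C per POLR1A and NOP56 per NOP58 are not drawn.

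The remaining called genes of the large subunit pathway were NOP16, DDX21, GNL2, RRS1, NIP7, DDX18, NOP2 and DDX56, with log2 fold changes between 1.07 for NOP16 and 0.59 for DDX56. DDX21, DDX18 and DDX56 are RNA helicases, and NOP2 methylates the 28S ribosomal RNA. Of the 47 other large subunit genes listed, 46 were tested, 26 were called higher and 1 lower (median 0.58). LYAR, a nucleolar zinc finger protein, had the largest increase (1.66, FDR = 0.00118). MDN1, the giant ATPase that remodels the large subunit precursor, was the gene called lower (-0.63, SE 0.12, FDR = 0.00634), a call that was lost after a correction for length and GC content (-0.07), with scaling by total counts (-0.45) and without control replicate 1 (-0.54). Of 17 genes of the machinery that trims the precursor RNA (exosome subunits, nucleases and cofactors), 11 were called higher and none lower. The largest change among them was that of EXOSC5, an exosome subunit (1.75, FDR = 0.000343). Over all 139 listed genes of the pathway outside the 48, 137 were tested, and 71 were called higher and 1 lower, with a median of 0.53.

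The product of RNA polymerase I was read where the tables list it. RNA45S5, the entry of the precursor, took 5.3% and 2.34% of all counts in control and 9.14% and 9.66% in the KD-labelled libraries. The control libraries differed from each other by more than the PRMT5 KD libraries did, and both lay below them. In the fit over all gene names the log2 fold change of RNA45S5 was 1.33 (SE 0.42, FDR = 0.0361). The sequence of RNA45S5 includes those of the mature ribosomal RNAs, so its counts cannot tell precursor from mature RNA. RNA28S5, whose sequence is also part of the precursor, took 0.97% and 2.53% in control and 6.23% in PRMT5 KD replicate 1, and was listed at 0 in PRMT5 KD replicate 2 (0.97, SE 4.53, FDR = 0.882). RNA18S5 had counts in PRMT5 KD replicate 1 alone (0.176%), and RNA5-8S5 and the 5S entries were listed at 0 in all libraries. Over the 4 entries from the precursor the share was 6.27% and 4.87% in control and 15.6% and 9.66% under the KD label. The widest 95% Wilson interval of these shares spanned 0.016 percentage points, which covers counting error only. How ribosomal RNA was removed or messenger RNA enriched is not given in the sources used here, so its share need not follow its level in the cells, and an entry at 0 may reflect how shared reads were divided.

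**Figure D4:**
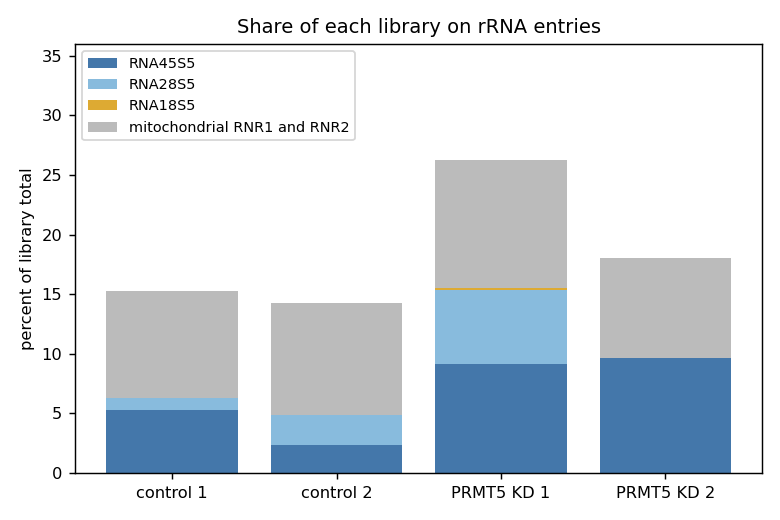
Stacked bars give the percent of each library's counts (y axis) that fell on nuclear and mitochondrial ribosomal RNA entries. RNA45S5 is 5.3% and 2.34% in control and 9.14% and 9.66% in the KD-labelled libraries, RNA28S5 is listed at 0 in PRMT5 KD replicate 2, and mitochondrial ribosomal RNA lies between 8.36% and 10.7% in the 4 libraries.

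Of 13 genes of the MYC network, 11 were tested, 2 were called higher (18.2%) and 3 lower, close to the shares over all genes tested of 21.2% and 24.3% (median log2 fold change 0.04). MXD3, a repressor partner of MAX, had the largest increase (0.99, FDR = 0.00512, and 0.95 with FDR = 0.0629 without control replicate 2), from 4.02 and 3.8 CPM to 7.61 and 7.89 CPM. MXI1, another repressor partner of MAX, had the largest decrease (-1.12, FDR = 0.00151), from 66 and 80.4 CPM to 36.3 and 30.9 CPM. Of 14 known MYC targets outside ribosome production, 13 were tested, and 8 were called higher and 1 lower (median 0.70). ODC1, the first enzyme of polyamine synthesis, was highest among them (2.22, FDR = 0.00123), and TFRC, the transferrin receptor, was lower (-0.93, FDR = 0.00279).

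All 10 proliferation markers examined were called higher in the KD-labelled libraries (median 1.62), and RRM2 had the largest change (3.35, FDR = 0.000149). Their summed level was 1000.2 and 720.3 CPM in control and 2651 and 2718 CPM under the KD label. They moved with the genes of ribosome production, and their part in that result was not tested.

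Within the 48, the change went down with the length of the gene's exons. The 24 genes with the shorter exon length (1542 to 4950 bases) included 23 called higher and had a median of 0.95 on the log2 scale. The 24 longer genes (5040 to 19694 bases) had a median of 0.52 and 13 were called. Across the 48 genes, which share the same 4 libraries, Spearman's rho was -0.57. Over all genes tested the medians were 0.13 below and -0.13 above the median length. After a correction for length and GC content, POLR1A was called higher (0.60, FDR = 0.00691), as were POLR1B (0.58), POLR1D (0.71), DDX10 (0.80) and WDR12 (0.68). HEATR1 had a log2 fold change of 0.00 (FDR = 0.982) in that fit and GNL3L one of 0.04 (FDR = 0.756). RRN3 lost its call (0.45), and 40 of the 48 were called higher in all.

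The E-box CACGTG, the site that MYC and MAX bind, was searched in promoter windows of RefSeq (GRCh38.p14) from 250 bases before to 50 bases after each gene's start. The motif reads the same on both strands. A window was given for 39 of the 48 genes, in 47 windows, and 16 of the 39 (41%) held the motif, compared with 8.77% of all genes with a window and 12.5% of the genes tested outside the 48. In the 100 bases around the start the same 16 genes held it, against 3.51% and 5.25%. In the main fit, all 16 were among the 28 called genes with a window (57.1%), and none of the 11 genes that were not called held it. After the correction for length and GC content, POLR1A (0.60), POLR1B (0.58), POLR1D (0.71), DDX10 (0.80) and WDR12 (0.68), which hold no motif, were called higher. In the main fit 23 of the 24 shorter and 13 of the 24 longer genes were called, and motif and exon length were not separated. Genes with the motif had a median log2 fold change of 0.92 and those without 0.53, and among the called genes alone the medians were 0.92 and 0.85. Outside the 48, genes with the motif within the longer window were called higher in 21.4% of cases and those without in 20.9%. A match in these letters is not a measured binding site.

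Of the genes with the motif, 8 are printed here to display where it lies, each from 70 bases before to 30 after the start, on the strand of the gene and 5′ to 3′, with the E-box in capitals. They were chosen after their values were seen.
RRP9 (chr3:51941875-51941974, minus strand): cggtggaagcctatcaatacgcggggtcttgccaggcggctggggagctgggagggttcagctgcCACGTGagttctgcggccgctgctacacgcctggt
PES1 (chr22:30591881-30591980, minus strand): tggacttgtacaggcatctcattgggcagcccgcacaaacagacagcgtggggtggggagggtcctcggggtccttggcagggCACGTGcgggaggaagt
GNL3 (chr3:52685962-52686061, plus strand): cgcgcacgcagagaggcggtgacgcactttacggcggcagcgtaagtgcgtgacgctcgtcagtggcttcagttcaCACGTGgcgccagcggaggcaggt
FBL (chr19:39846350-39846449, minus strand): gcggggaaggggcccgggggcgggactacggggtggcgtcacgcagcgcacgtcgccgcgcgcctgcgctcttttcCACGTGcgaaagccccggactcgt
NOL6 (chr9:33473895-33473994, minus strand): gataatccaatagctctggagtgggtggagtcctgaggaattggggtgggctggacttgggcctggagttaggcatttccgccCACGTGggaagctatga
NOP14 (chr4:2963377-2963476, minus strand): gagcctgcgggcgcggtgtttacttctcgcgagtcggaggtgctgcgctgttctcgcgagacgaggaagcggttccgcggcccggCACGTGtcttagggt
GNL2 (chr1:37595908-37596007, minus strand): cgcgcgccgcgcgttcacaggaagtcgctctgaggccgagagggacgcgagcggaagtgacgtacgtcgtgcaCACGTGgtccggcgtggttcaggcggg
UTP4 (chr16:69132579-69132678, plus strand): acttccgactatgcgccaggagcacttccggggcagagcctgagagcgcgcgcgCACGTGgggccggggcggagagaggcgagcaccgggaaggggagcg

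Counted from the first transcribed base as 0, the E-box began at 6 in FBL, 6 in GNL3, 3 in GNL2, 13 in PES1, 13 in NOL6 and 15 in NOP14. It began before the start at -5 in RRP9 and at -16 in UTP4. In these genes the motif sat on or just beside the start. All 16 genes with the motif were called, so the calls of these 8 follow from their choice. Among the others it began at 3 in WDR43 and -10 in UTP20, but at -31 in DDX21, 35 in NOP2 and -237 and 42 in EBNA1BP2. The called genes NOP56 (1.19), NCL (1.13) and RRP1 (1.08) hold no E-box in their windows. The same windows of POLR1A, HEATR1 and GNL3L, which were not called in the main fit, are shown for comparison and hold none either. POLR1A was called after the correction for length and GC content (0.60).
POLR1A (chr2:86105857-86105956, minus strand): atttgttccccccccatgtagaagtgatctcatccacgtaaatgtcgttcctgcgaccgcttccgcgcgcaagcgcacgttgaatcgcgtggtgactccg
HEATR1 (chr1:236604487-236604586, minus strand): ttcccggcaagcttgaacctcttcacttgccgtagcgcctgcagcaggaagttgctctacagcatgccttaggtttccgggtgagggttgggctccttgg
GNL3L (chrX:54530149-54530248, plus strand): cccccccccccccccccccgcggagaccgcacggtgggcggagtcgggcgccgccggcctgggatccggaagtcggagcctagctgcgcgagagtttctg

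**Figure D5:**
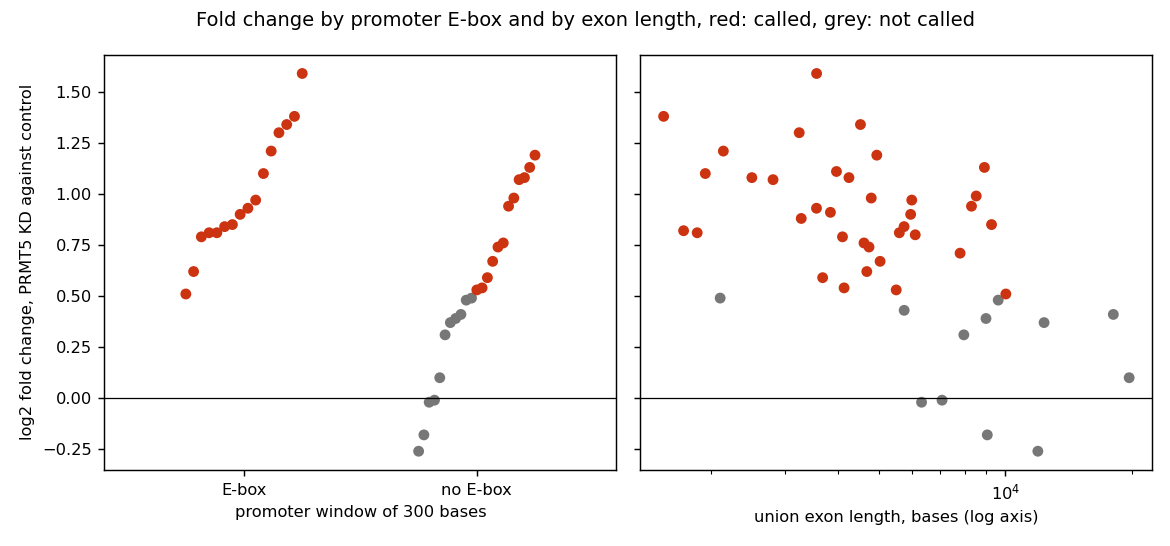
The log2 fold change between the KD-labelled libraries and control (y axis) is drawn for the 39 genes with a promoter window by whether the window of 300 bases holds the E-box (left, points spread sideways by rank) and for all 48 genes by union exon length (right, log axis), red for called and grey for not called. All 16 genes with the E-box are red, and 11 of the 12 grey points on the right belong to the 24 genes with the longer exon length.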

How the data were processed

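RNA-seq was done on total RNA with a directional library kit, in 2 control and 2 PRMT5 KD libraries. The authors deposited estimated counts per gene, not normalized, 1 table per library. The submitters' processing notes name FastQC, Trim Galore, STAR, Salmon, DESeq2 and GRCh38 without their roles, whereas the methods of the paper describe unique alignments counted on protein-coding genes. The strand setting of the counting is not given in the sources used here, so reads from a gene and its antisense partner cannot be told apart. Of 29744 entries, 28 with names turned into dates were left out (0.15% to 0.161% of the counts). Matching of the 29655 distinct names to GENCODE 44 was by current symbol (21877) or RefSeq synonym (1530), and 18823 were protein-coding. Between 86% and 86.8% of the values in a table were whole numbers.

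After rounding, a protein-coding gene was tested if its RPKM reached 0.5 in both control or both PRMT5 KD libraries. The quasi-likelihood test of edgeR 4.0.16 (R 4.3.3) was run with TMM factors (0.935 to 1.09) and robust dispersion, and the FDR is the Benjamini-Hochberg value over every gene tested. The biological coefficient of variation was 0.142. Calls needed FDR < 0.05 and a log2 fold change of 0.5 or more in size. The SE is the fold change divided by the root of its F statistic. CPM and RPKM use the TMM-scaled library size over the genes tested and, for RPKM, the union exon length. The code was run on simulated counts with few changed genes, balanced in direction and without an effect of length. That run cannot check the choice of scaling or the effect of length in these data. Alternatives were DESeq2 1.42.0, other scalings, filters, gene sets and thresholds, non-robust dispersion, a replicate term, a length and GC correction (splines with 4 degrees of freedom), and fits without 1 library. The 48 genes, the other gene lists and the tests were chosen with earlier results of these data known. Values per library are given for MYC, NCL, NPM1, FBL, the RNA polymerase I genes and the 3 highest and 3 lowest genes of each subunit pathway. Of each other list, the called gene with the largest change in each direction is named. The levels of POLR1G, MXD3 and MXI1 per library and the pairs of genes compared by ratio were added after their values were seen. Protein sequences were not used here. Beside the markers named, 1 further squamous gene is not reported here.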

Additional observations from a re-analysis of the deposited data

How the results depend on the processing

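With 2 libraries per group, no permutation test can reach a p of 0.05, and depth limits the least expressed markers most. The lowest count of any of the 48 genes in a library was 352. Each of the 48 genes was refitted under 16 alternatives, which gave 768 values, of which 666 kept their direction and side of the threshold, 45 lost and 35 gained a call and 22 changed sign. Of the 36 genes called higher, 24 were called under all 15 alternatives that kept the threshold of 0.5, and none of the 48 was called lower under any. The median log2 fold change of the 48 was 0.99 with total counts, 0.90 with library totals over all names, 0.88 with filterByExpr and 0.92 with all gene names. With the fold change threshold at 1 on the log2 scale, 2553 genes were called, 1028 higher and 1525 lower, with 12 of the 48, 16 of the other pathway genes higher and 0 lower. No other pathway gene was called lower (0) with total counts, with the length and GC correction, or with the replicate block and that correction together.

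Leaving out 1 library at a time, where the lone library of a group is assumed to vary like the other group, gave between 3103 and 5694 called genes, 1347 to 2758 higher and 1756 to 2944 lower. The ranges were 24 to 38 for the 48 genes, 35 to 79 for other pathway genes called higher, 0 to 2 for those called lower, and 0.72 to 0.92 for the median of the 48. Without control replicate 2, the genes DDX21, DDX56, LTV1, MYBBP1A, MYC, NIP7, NOP2, POLR1C, RRN3, RRS1, UTP20 and WDR75 lost their call.

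The genes that changed sign were not called, with main values between -0.26 (GNL3L) and 0.10 (POLR1A). GNL3L came to 0.04 with the length and GC correction and 0.05 with the replicate block added. UTP15 came to 0.16 with total counts, 0.06 with library totals, 0.05 with filterByExpr, 0.04 without a filter, 0.09 with all gene names, 0.10 without control replicate 1 and 0.08 without PRMT5 KD replicate 2, and was lowest at -0.13 without control replicate 2. HEATR1 came to 0.00 with total counts, with the length and GC correction and with the block added to it. POLR1A came to -0.02 without control replicate 2 and 0.22 without control replicate 1. UBTF came, in the order given for UTP15, to 0.17, 0.08, 0.06, 0.04 and 0.10, to 0.18 with the length and GC correction (0.18 also with the block), to 0.14 without control replicate 2, to -0.14 without control replicate 1 and to 0.15 without PRMT5 KD replicate 1. The causes were not tested.

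The replicate numbers are shared by the groups in the labels only, and same-numbered libraries did not deviate together (correlation -0.0998). With the replicate block, 5173 genes were called, 2398 higher and 2775 lower, with 36 of the 48 and 69 other pathway genes higher.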
